A study of Homo sapiens with 3 samples.

Results

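Translation initiation and elongation factor genes were examined as a family in a PAR-CLIP experiment on CTCF, the zinc-finger protein that anchors chromatin loops. The members were the protein-coding rows of the deposited table whose Ensembl identifier has a symbol opening with EIF or EEF and then a digit. There were 63 of them, 51 EIF and 12 EEF genes, among 12220 protein-coding genes and 17201 genes in all. The rule also takes in kinases, methyltransferases and inhibitors that act on the factors, a read-through row (EEF1E1-BLOC1S5) and EIF4A3, which works in the exon junction complex rather than in initiation.

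The cells were U2OS, a human osteosarcoma line, given 400 µM 4-thiouridine and then crosslinked with 365 nm light at 400 mJ/cm2. CTCF and its attached RNA were precipitated from nuclear lysates. Of 3 labelled samples, 2 are biological replicates made with separate lots of an anti-CTCF antibody and the remaining sample merges their sequencing data. The merged sample is the 1 analysed here, so each gene has a single value without replicate error, and no test between groups could be made. A control precipitation and RNA abundance were not analysed here. A count therefore gives RNA recovered in the CTCF precipitate, which may include RNA not bound to CTCF. It does not give preference over the RNA present.

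Protein synthesis begins when eIF2 carries the initiator tRNA to the small ribosomal subunit, where eIF3 serves as a scaffold. The eIF4 factors bind the mRNA cap and unwind the leader. eIF1 and eIF1A govern the choice of start codon, eIF5 and eIF5B bring the large subunit in, and eEF1A and eEF2 then deliver aminoacyl-tRNA and move the ribosome along. Many of their mRNAs belong to the TOP class, whose transcripts start with a C followed by a run of pyrimidines and whose translation follows mTOR signalling.

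The start sites of the best recovered members per kb, and of members with a TOP-type start, are shown because they are the parts of these RNAs that define the TOP class. Sequences are from RefSeq (GRCh38.p14). Each line gives 30 bases, of which 10 lie before the annotated start, so transcription starts at base 11. Capitals mark a C at the start with at least 4 pyrimidines after it, up to the first purine. A line in lower case throughout has no such run at that start.
EEF1A1 (chr6:73521013-73521042, minus strand): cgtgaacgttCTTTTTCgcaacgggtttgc
EEF2 (chr19:3985444-3985473, minus strand): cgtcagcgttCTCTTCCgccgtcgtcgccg
EIF4B (chr12:53006446-53006475, plus strand): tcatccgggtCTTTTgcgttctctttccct
EIF3D (chr22:36529147-36529176, minus strand): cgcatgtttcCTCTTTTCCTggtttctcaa
EIF3M (chr11:32583821-32583850, plus strand): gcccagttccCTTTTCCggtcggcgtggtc
EEF1B2 (chr2:206159885-206159914, plus strand): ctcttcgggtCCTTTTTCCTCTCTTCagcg
EIF2S3 (chrX:24054946-24054975, plus strand): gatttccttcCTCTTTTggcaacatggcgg
EIF2S3B (chr12:10505880-10505909, plus strand): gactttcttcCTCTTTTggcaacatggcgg
EIF4G2 (chr11:10807977-10808006, minus strand): tgtcggaagcacttccctaacttgcgcctg
EIF4G1 (chr3:184314596-184314625, plus strand): gcggggagccggaaatggttgtggactacg
EIF4A1 (chr17:7572815-7572844, plus strand): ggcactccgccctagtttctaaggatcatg

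RefSeq start windows were found for 50 members, and 13 of these (26%) had the run at an annotated start, against 7.56% of the 9568 listed protein-coding genes with a window. Besides the members shown above, EIF3F, EIF3K, EIF4A2, EIF2A and EIF2D had it. Among 62 cytosolic ribosomal protein genes with a window, the textbook TOP family, 46 (74.2%) had the run. The 13 members with it had a median of 8.93 counts per kb and ranged from 0.747 to 102, and the 37 members without it had a median of 5.35 and ranged from 0.361 to 65.3. The ranges overlap, and over all listed protein-coding genes the medians were 1.87 per kb with the run and 1.55 without. The median of 8.93 is the value of EIF4A2, with 13 counts over a 1.46 kb interval that covers part of the gene only. By counts the medians of the members were 88 with the run and 69 without, against 47 and 44 over all listed protein-coding genes.

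Most annotated members were recovered, and at counts above those of the typical protein-coding gene. Of 70 RefSeq protein-coding genes that fit the naming rule and have exactly 1 Ensembl identifier, 62 were listed (88.6%), against 60.2% of the 19124 annotated protein-coding genes treated the same way. The read-through row is the member outside this set. The 8 that were not listed were EIF1B, EIF1AY, EIF4E1B, EIF4E3, EIF4EBP3, EEF1AKMT3, EEF1AKMT4 and EEF1AKMT4-ECE2. No row of the table has fewer than 6 counts, so these genes may have had a lower count, not have been among the features counted, or stand among the 681 rows without a matched symbol. Among the 63 members the median was 82 counts, against 42 in the other 12157 listed protein-coding genes. At 100 counts or more stood 28 members (44.4%, exact 95% Clopper-Pearson interval 31.9 to 57.5%), beside a background of 26.1% of all listed protein-coding genes. Together they held 10804 counts, or 0.948% of the protein-coding sum, with 0.516% of the genes.

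Longer intervals collect more counts, and the members' intervals were shorter than usual, with a median of 18.6 kb against 30.3 kb for the other protein-coding genes. Listed protein-coding genes were therefore divided into 20 equal groups by interval length, of 611 genes each. In their own length group 48 members (76.2%, exact 95% interval 63.8 to 86.0%) lay above the median count, beside 49.6% of all listed protein-coding genes. Counted per kb of interval, the median member had 5.84 and the median of the other genes was 1.54. Ribosomal protein genes, whose products make up the particle these factors serve, gave another order on each scale. The median count was 82 for the factor genes and 69 for the 78 listed ribosomal protein genes, but the median per kb was 5.84 for the factor genes and 12.6 for the ribosomal protein genes, whose median interval was 4.90 kb. No test separates these sets, because genes of 1 library are not replicates. Rank correlation of count with interval length (Spearman) was 0.307 over the 63 members and 0.434 over protein-coding genes, each a description across genes of the same library.

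**Figure D1:**
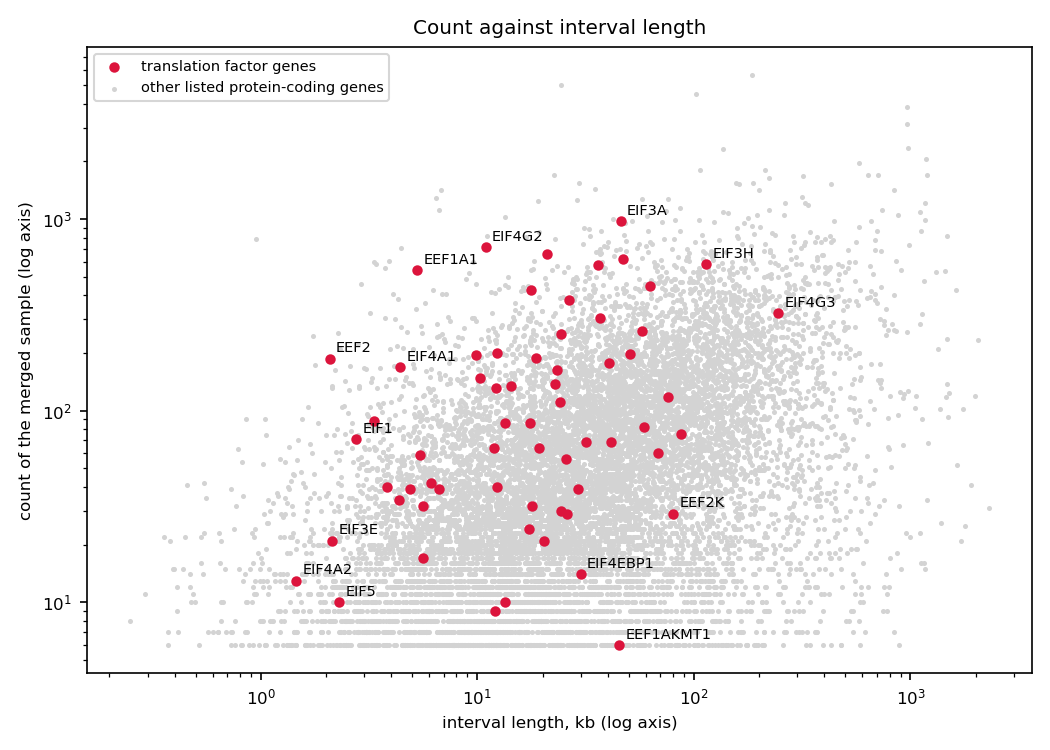
Count of the merged sample (y, log axis) against the length of the counted interval in kb (x, log axis) for the 63 translation factor genes (red) and the other listed protein-coding genes (grey), with selected members named. EEF1A1, EEF2 and EIF4G2 lie at the upper edge for their length, and EEF1AKMT1 lies on the floor of 6 counts.

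**Figure D2:**
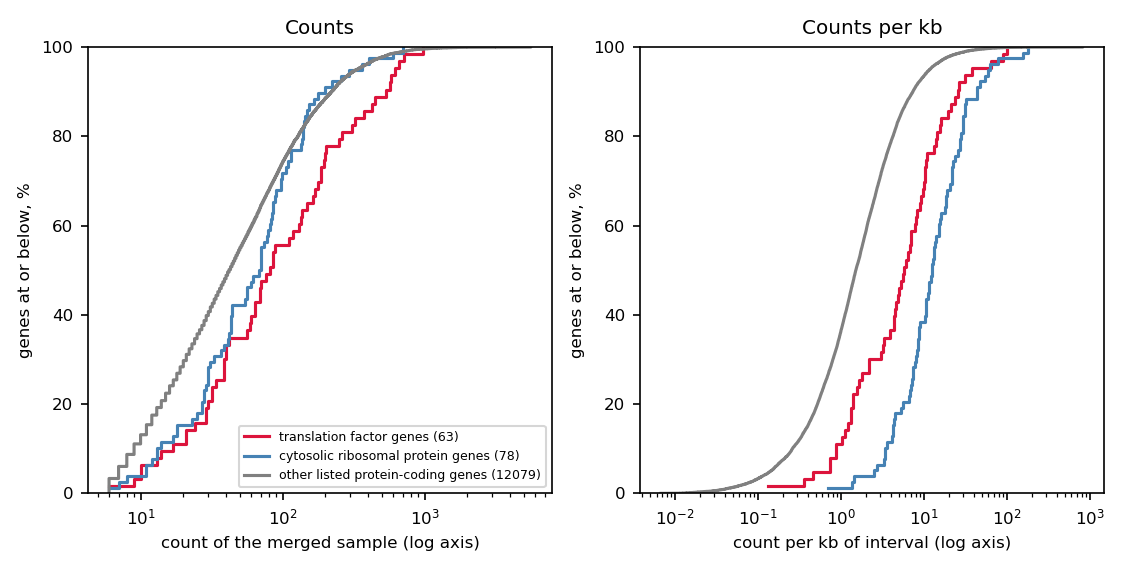
Percent of genes (y) at or below a given count (left) and count per kb of interval (right), with x as a log axis, for translation factor genes (red), cytosolic ribosomal protein genes (blue) and the remaining listed protein-coding genes (grey). Translation factors lie right of the remaining genes on both scales, and the ribosomal protein genes lie farthest right per kb over most of the range.

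The 6 highest members, EIF3A, EIF4G2, EIF4G1, EIF3C, EIF3H and EIF4B, held 38.1% of the members' sum. The matching share over all listed protein-coding genes was not worked out, so this is not shown to be particular to the family. There were 7 members with 500 counts or more (2.31% of listed protein-coding genes reach this) and 7 with fewer than 20 (28.2% of listed protein-coding genes). EIF3A had 976 counts (95% Poisson interval 916 to 1039) over 46.0 kb of chromosome 10 (120794356 to 120840316, hg19), and 58 protein-coding genes of the table had at least as many. Per kb the order was another. EEF1A1 led with 102 (93.8 to 111), and EEF2 with 89.9 (77.5 to 104) could not be told from it by counting error. The EEF2 interval covers part of the gene only, so its place in this order may not hold for the whole gene. EIF4G2 followed with 65.3 (60.6 to 70.2), then EIF4A1 with 38.1 (32.6 to 44.3) and EIF4G1 with 31.5 (29.2 to 34.1), and the Poisson intervals of EIF4A1 and EIF4G1 overlap.

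**Figure D3:**
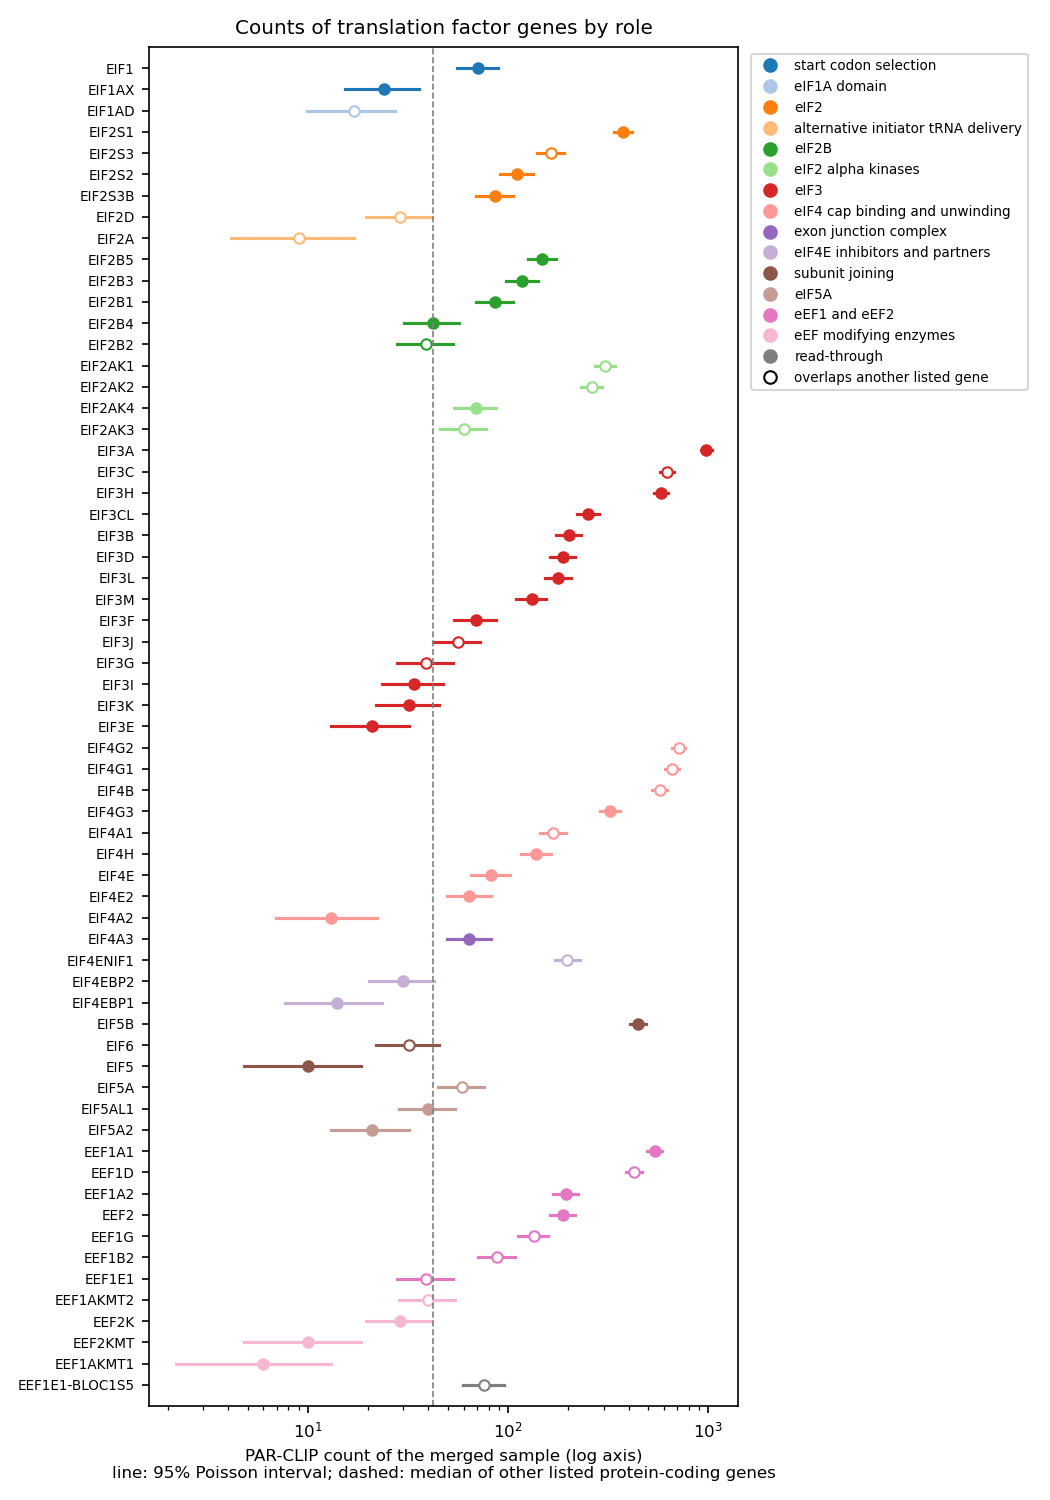
Count of the merged sample (x, log axis) for each of the 63 members, grouped by role from initiation (top) to elongation and modification (bottom). Points are counts, lines are 95% Poisson intervals, open points overlap another listed gene, and the dashed line is the median (42) of the other listed protein-coding genes. Subunits of eIF3 and eIF4 reach from 13 to 976 counts, and the enzymes that modify elongation factors lie at or below 40.

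The eIF3 complex, the scaffold of the initiating small subunit, held the largest part of the members' sum of all role groups, 31.2%, with 14 of the 63 members. All 14 annotated eIF3 genes were listed, all 14 lay above the median of their length group, and 8 had 100 counts or more. For comparison, 60.2% of annotated protein-coding genes were listed. Of listed protein-coding genes, 49.6% lay above their group's median and 26.1% had 100 counts or more. EIF3A, which encodes the largest subunit, had 21.2 counts per kb. EIF3B, for the subunit that binds eIF3a and eIF3g, had 201 counts and 16.3 per kb. EIF3H, an MPN-domain subunit, had 579 counts, but over 114 kb of chromosome 8, which came to 5.09 per kb. EIF3D, for the subunit that can itself bind the cap of certain mRNAs, had 188 counts, EIF3L had 178 and EIF3M had 131. Lower counts were found for EIF3F (69), EIF3J (56, for the loosely held subunit), EIF3G (39), EIF3I (34) and EIF3K (32). EIF3E had the fewest, 21 (13.0 to 32.1), over an interval of only 2.13 kb, which gave 9.85 per kb, close to the median of the complex (8.92).

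EIF3C and its copy EIF3CL lie near each other on chromosome 16 and are almost identical in sequence, so the authors' alignment could assign their reads to either. EIF3C had 620 counts over 47.0 kb (28699879 to 28746919, hg19) and EIF3CL had 251 over 24.3 kb (28390902 to 28415200). EIF3C held 71.2% of the pair's counts but 56.1% when counted per kb (13.2 and 10.3 per kb). The whole EIF3C interval lies inside that of the pseudogene PLA2G10DP, with 621 counts, 1 more than EIF3C.

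Cap-binding and unwinding factors of the eIF4 group held 25.3% of the members' sum. Of 11 annotated genes 9 were listed, beside 60.2% of annotated protein-coding genes. Above their length group's median lay 8 of the 9, beside 49.6% of listed protein-coding genes. EIF4G2 encodes a relative of the eIF4G scaffold that lacks the eIF4E-binding region and serves cap-independent initiation. It had 713 counts (662 to 767) over 10.9 kb of chromosome 11 (10818597 to 10829520). A listed antisense gene with 490 counts covers 4.58 kb of that interval, and strand cannot be told from the table. EIF4G1, the main scaffold gene, had 658 counts (609 to 710) over 20.9 kb. EIF4G3, a further scaffold gene, had 323 counts over 245 kb, or 1.32 per kb. EIF4B, for the cofactor that stimulates the helicase, had 572 counts and 15.9 per kb, and EIF4H, a related cofactor, had 138 and 6.04. EIF4E, the cap-binding protein gene, had 82 counts and 1.39 per kb. Its relative EIF4E2, which competes at the cap as a repressor, had 64 counts and 3.34 per kb. EIF4E held 56.2% of the pair's counts (exact 95% interval 47.7 to 64.4%), so the order by counts was not resolved.

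The helicase genes EIF4A1 and EIF4A2 differed widely in counts, with 168 for EIF4A1 and 13 (6.92 to 22.2) for EIF4A2. EIF4A1 thus held 92.8% of their counts, and 81.0% per kb (38.1 and 8.93). The EIF4A2 interval was just 1.46 kb long. It was the shortest of 5 members under 3 kb, together with EEF2 (2.08 kb), EIF3E (2.13 kb), EIF5 (2.30 kb) and EIF1 (2.76 kb). EIF4A2, EEF2, EIF3E and EIF5 are known to be longer genes than these intervals, so their counts cover part of the gene only. Members with intervals of 3 kb or more were not checked in this way, and some of their intervals may also be partial. EIF4A3, the third helicase of the family and a core protein of the exon junction complex, had 64 counts and 5.35 per kb.

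The eIF4E inhibitors and partners had 14 to 198 counts. EIF4EBP1 and EIF4EBP2 encode the repressors that mTOR phosphorylates, and they had 14 and 30 counts, 0.466 and 1.24 per kb, both below their length group's median. EIF4ENIF1, for the protein that carries eIF4E into the nucleus and to P-bodies, had 198 counts over 50.5 kb, or 3.92 per kb. Of that interval, 2 listed antisense genes with 130 and 28 counts overlap a part.

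The eIF2 genes, for the carrier of initiator tRNA, all lay above the median of their length group, beside 49.6% of listed protein-coding genes. EIF2S1, for the alpha subunit that stress kinases phosphorylate, had 377 counts (340 to 417) and 14.2 per kb. EIF2S3, for the gamma subunit, had 163, and EIF2S2, for the beta subunit, had 111. EIF2S3B, a copy of EIF2S3 on chromosome 12, had 86 counts. As the start sites above show, the copies are alike on both sides of the annotated start. Their 300-base windows were identical at 282 bases, and at 48 of the 50 bases after the start. In the 30 bases printed, they differed by T3C and C6T (the EIF2S3 base, the position from the left, the EIF2S3B base). How reads were divided between the genes is therefore uncertain.

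Genes of eIF2B, the exchange factor that recharges eIF2, had 39 to 148 counts. All 5 lay above their length group's median, beside 49.6% of listed protein-coding genes. EIF2B5, for the catalytic subunit, was highest with 148 counts and 14.4 per kb. EIF2B3 had 118, EIF2B1 86, EIF2B4 42 and EIF2B2 39. The 4 kinases that inactivate eIF2 each answer to a different stress. EIF2AK1, the heme-regulated kinase HRI, had 306 counts and EIF2AK2, the double-stranded RNA sensor PKR, had 261. EIF2AK4, the amino acid sensor GCN2, had 69, and EIF2AK3, the endoplasmic reticulum kinase PERK, had 60, below the median of its length group. Per kb they had 8.27, 4.51, 1.67 and 0.880 in that order. EIF2A and EIF2D, for factors that can deliver initiator tRNA without eIF2, had 9 (4.12 to 17.1) and 29 counts. Both lay below their length group's median, and both overlap another listed gene, EIF2A lying entirely within SERP1 (85 counts).

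Start codon and subunit joining factors ranged from 10 to 445 counts. EIF1, the gatekeeper of start codon choice, had 71 counts and 25.7 per kb, and EIF1AX, which encodes eIF1A, had 24 and 1.39 per kb. EIF1AD, for a protein with an eIF1A-like domain, had 17. EIF5B, for the GTPase that joins the subunits, had 445 counts (405 to 488) over 62.9 kb, 7.07 per kb. EIF5, for the factor that activates GTP hydrolysis by eIF2, had 10 (4.80 to 18.4), and EIF6, which keeps free large subunits from joining, had 32 and shares 1.13 kb with an antisense gene of 51 counts. In the eIF5A group, whose proteins carry hypusine and relieve stalled ribosomes, EIF5A had 59 counts and EIF5A2 had 21. The copy EIF5AL1 on chromosome 10 had 40 counts, or 10.4 per kb, and EIF5A had 10.8 per kb. Unlike EIF2S3 and its copy, their start windows matched at only 95 of 300 bases, and at 29 of the 50 after the start. EIF5A has 6 annotated windows, and a start window does not show how alike the rest of the genes is. How reads were divided between EIF5A and EIF5AL1 is therefore uncertain as well. The EIF5A interval overlaps that of GPS2 (58 counts) over 1.13 kb.

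Elongation factor genes had the highest values per kb of all role groups, with a median of 24.1 over the 7 eEF1 and eEF2 genes. EEF1A1, for the main carrier of aminoacyl-tRNA, had 539 counts (494 to 586) over 5.27 kb of chromosome 6 (74225473 to 74230741). EEF1A2, the form known from muscle and neurons, had 195 counts (169 to 224) over 9.82 kb of chromosome 20, or 19.9 per kb. EEF1A1 held 73.4% of the pair's counts, and 83.7% per kb. EEF2, for the translocase, had 187 counts over 2.08 kb, an interval that covers part of the gene only. The exchange factor genes had 426 (EEF1D), 134 (EEF1G) and 88 (EEF1B2), that is 24.1, 9.32 and 26.3 per kb. An antisense gene with 174 counts covers 0.949 kb of EEF1D. Nearly all of EEF1G lies within another protein-coding row, with 141 counts. EEF1E1, for a protein of the aminoacyl-tRNA synthetase complex, had 39 counts at 1.34 per kb and was the only gene of this group below the median of its length group. The read-through row EEF1E1-BLOC1S5, which takes in nearly all of the EEF1E1 interval, had 76.

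Enzymes that modify the elongation factors had a median of 19.5 counts and 0.551 per kb, the lowest median per kb of the role groups. EEF2K, the kinase that inactivates eEF2, had 29 counts over 80.4 kb, or 0.361 per kb. The methyltransferase genes EEF1AKMT2, EEF2KMT and EEF1AKMT1 had 40, 10 and 6 counts. The value of EEF1AKMT1 is at the floor of the table, with a 95% Poisson interval of 2.20 to 13.1, and was the lowest of all members per kb as well (0.133). EEF1AKMT2 lies wholly within a longer listed gene with 205 counts.

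For each of EEF1A1, EIF4B and EIF5, the listed pseudogenes summed to more counts than the gene. Pseudogenes of this kind are mostly intronless copies of the spliced mRNA scattered over the genome. The table held 62 rows of a pseudogene class named after 17 of the members, of 155 such symbols annotated, with 3279 counts in all. This is 23.3% of the sum of members and pseudogenes together. Their median of 17 counts compares with 14 over all 2062 pseudogenes of the table, and 9 of them reached 100 counts, of 89 pseudogenes that did. Whether the authors kept reads that map to several places is not given in the sources used here, so RNA of the factor gene and RNA of a copy cannot be told apart by these counts.

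EEF1A1 had the largest such family. Its 24 listed pseudogenes, of 49 annotated, summed to 1827 counts and the gene itself had 539, so the copies held 77.2% of their joint 2366 (75.5 to 78.9%). EEF1A1P5, on chromosome 9 (135894873 to 135896261), had 707 counts (656 to 761) over 1.39 kb. It had more counts than any other pseudogene of the table, overlapped no other listed gene, and its 509 counts per kb compare with 102 for EEF1A1. Next came EEF1A1P6 with 221 counts, EEF1A1P9 with 183, EEF1A1P11 with 164 and EEF1A1P13 with 101. The other 19 had 64 (EEF1A1P19) or fewer.

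EIF4B followed, with 7 of 9 annotated pseudogenes listed, which had 810 counts while the gene had 572 (58.6% in the copies, 56.0 to 61.2%). EIF4BP7 had 233, EIF4BP6 170, EIF4BP3 164, EIF4BP2 117 and EIF4BP5 71. The pseudogenes of EIF4A1 had 133 counts and the gene 168, and those of EEF1B2 had 77 and the gene 88. The pseudogenes of EEF1D had 157, of which EEF1DP1 held 79 and EEF1DP2 50, and the gene had 426. For EIF5, the single listed copy EIF5P1 had 77 counts over 1.23 kb and the gene 10 (88.5% in the copy, 79.9 to 94.3%). The copy of EIF4A2 had 16 and the gene 13, an order not resolved by counting error (55.2% in the copy, 35.7 to 73.6%). EIF5 and EIF4A2 are among the genes counted over a part of their length only.

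**Figure D4:**
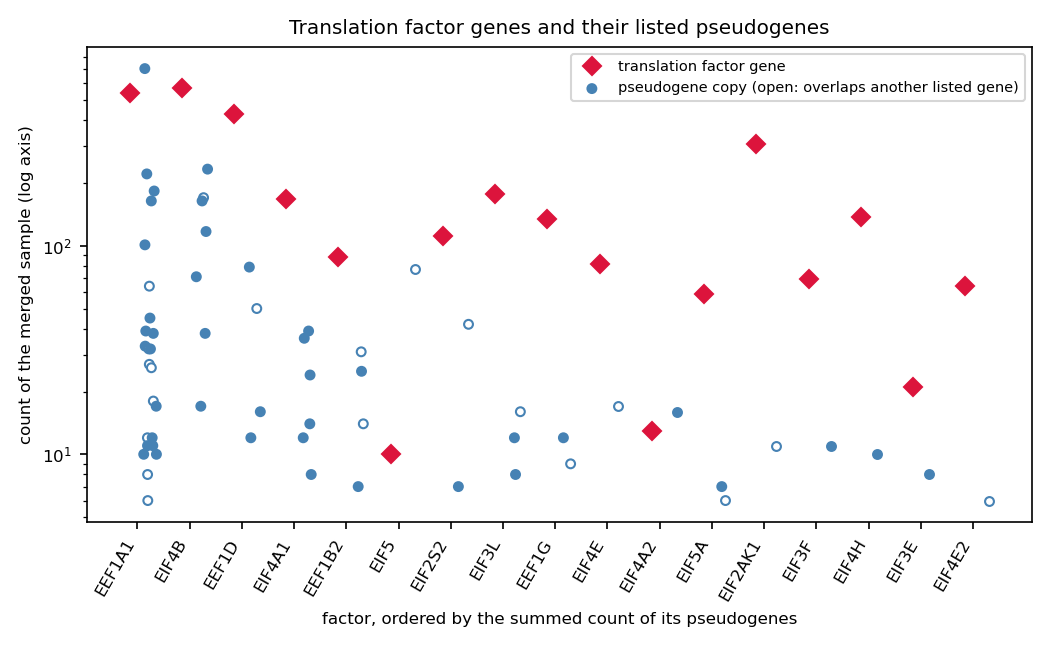
Counts of the merged sample (y, log axis) for the 17 members with listed pseudogenes (red diamonds) and for each of their 62 pseudogenes (blue circles, open where the copy overlaps another listed gene). EEF1A1P5 lies above EEF1A1, and EIF5P1 lies above EIF5.

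Of the 62 pseudogenes, 20 lay wholly inside another listed interval, and none (0) of them had more counts than the gene around it. The copy's count came to a median of 36.8% of the surrounding gene's count, in a median of 0.989% of its length. In 7 of the 20 the copy's count was more than 50% of the surrounding gene's. These percentages divide the copy's count by the surrounding gene's count, and whether both counts hold the same reads was not tested. EIF4BP6 had 170 counts within LHFPL3, a gene for a tetraspan membrane protein, whose 579 kb held 201, so the copy's share was 84.6% (exact 95% interval 78.8 to 89.3%) in 0.316% of the length. EIF5P1 had 77 counts and SHROOM2, the actin regulator gene around it, had 112 (68.8%, 59.3 to 77.2%). EIF2S2P4 had 42 and ERICH2-DT had 51 (82.4%). EIF2AK1P1 had 11 counts, beside 12 in the interval listed for ATR, the DNA damage kinase gene. It took up 24.2% of that interval, which was 8.48 kb long. Whether the interval covers the whole ATR gene was not checked.

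Several factor genes host snoRNAs, guides of RNA modification that are cut from introns, and 4 of these were listed inside members. SNORD10 had 43 counts in 142 bases of EIF4A1, equal to 25.6% of that gene's count in 3.22% of its length. SNORD51 had 20 within EEF1B2 (22.7% in 2.39%) and SNORD97 had 89 within EIF4G2 (12.5% in 1.30%). SNORD66 had 24 within EIF4G1, equal to 3.65% in 0.364%. Without the inner counts EIF4A1 would have 125 and EIF4G2 624. EIF4A1 is itself covered, wholly or nearly so, by a pair of listed processed-transcript rows with 286 and 271 counts. In all, 24 of the 63 members overlapped another listed gene (38.1%, against 34.7% of listed protein-coding genes), and in 12 the other gene had at least 90% as many counts as the member. That comparison takes the whole count of each gene, however short the shared stretch. Its share over all overlapping protein-coding genes was not worked out. For EEF1B2 with NDUFS1 (135 counts) and EIF3J with SPG11 (85 counts) the shared stretch was 0.019 and 0.108 kb. The median of the 39 members without any overlap was also 82.

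Other genes of translation were described from lists drawn up by function. Of all annotated protein-coding genes, 60.2% were listed. Of 22 cytosolic aminoacyl-tRNA synthetase genes and partners, 20 were listed with a median of 182 counts, and 14 (70%) had 100 or more. Over all listed protein-coding genes this share was 26.1%. IARS1, the isoleucine enzyme, had 431, and QARS1, the glutamine enzyme, had 19 over 3.32 kb. All 8 termination and recycling genes were listed with a median of 105. GSPT1, for the release factor eRF3a, had 410, its intronless relative GSPT2 had 132 and ETF1, for eRF1, had 78. In the list of further initiation cofactors all 13 were listed with a median of 85. DDX3X, a helicase of structured leaders, had 810 counts and 48.2 per kb, and LARP1, which binds the TOP start, had 527 and 5.03. The kinase gene MKNK1, whose product phosphorylates eIF4E, had 7. Of 8 genes for poly(A)-binding proteins and partners, 6 were listed and none (0) reached 100 counts. So few genes are too few to set against the share of 26.1%. PABPC1 had 99 and PABPC3 96, and how reads were divided between these paralogs was not examined.

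The table as a whole summed to 1322047 counts, from 6 to 6801 per gene with a median of 31, and CTCF itself had 120 (99.5 to 143). Of 10 osteosarcoma and mesenchymal markers 7 were listed with 8 to 1277 counts, while COL1A2, BGLAP and IBSP were not. Markers of blood (0 of 4) and liver (0 of 3) were not listed, and of 3 epithelial markers KRT8 had 206 counts and CDH1 13.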

How the data were processed

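The authors deposited raw counts per Ensembl gene interval for the merge of 2 biological replicates. Bowtie, bedtools and build hg19 are named in the submitters' processing notes, without versions or roles. Whether strand was used, and how duplicates and reads with several positions were treated, is not given in the sources used here. Every listed gene has 6 counts or more. Where a member or its pseudogene lay wholly inside another listed gene, it never had more counts than that gene, so overlapping genes are treated as sharing reads.

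Symbols were found for 16520 of the 17201 Ensembl identifiers in a lookup table. Counts carry exact 95% Poisson intervals and shares exact 95% Clopper-Pearson intervals. Both cover counting error only, since amplified molecules are not independent, and intervals on shares of genes treat genes as separate draws. Interval length is end minus start plus 1, and genes overlap when they share 1 base. The length-group method was run on simulated data in which counts were shuffled over genes. That run tested whether raised counts lie above the group median, not whether the groups remove the link of count with length. Named genes are all members, the paralog pairs, and pseudogenes with 50 counts or more, with some others chosen after their values were seen, as were the pairs of EIF2S3 and EIF5A with their copies. The members and lists were chosen with earlier results of these data known. Python 3.11.15, pandas 2.3.3, SciPy 1.17.1 and matplotlib 3.10.9 were used.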

Additional observations from a re-analysis of the deposited data

How the results depend on the processing

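The number of members, their median count (82, with a 95% order-statistic interval of 59 to 138 over genes) and the share above the median of their length group (76.2%) moved within their intervals, or within 1.5 times for the number, under all alternatives run. The median ranged from 62, without the members that have a near-identical copy or a listed pseudogene (40 members left, an alternative chosen after seeing the data), to 86 at a minimum of 10 counts, and that share ranged from 70% in the same reduced set to 77.8% per kb. The share of members at 100 counts or more was 44.4%. It was 65.1% at a threshold of 50 and 23.8% at 200, against 45.7% and 11.6% of listed protein-coding genes. The members' share of the protein-coding sum was 0.948%, but 1.64% per kb and 0.895% without overlapping genes. Per kb the share of the first gene of each pair moved to 83.7% for EEF1A1 with EEF1A2, 81.0% for EIF4A1 with EIF4A2, 91.3% for EIF5A with EIF5A2, 56.1% for EIF3C with EIF3CL, 96.0% for EIF4G1 with EIF4G3 and 29.4% for EIF4E with EIF4E2. By counts these were 73.4%, 92.8%, 73.8%, 71.2%, 67.1% and 56.2%. Pseudogenes held 23.3% of the joint sum, and 19.6% without those that overlap another listed gene. No paired analysis was possible because the counts are those of the merge alone, and for the same reason no replicate could be left out. At this depth the order of members below about 20 counts is not resolved. Neighbours with higher counts were often not resolved either. EIF2B4 with 42 (30.3 to 56.8) and EIF2B2 with 39 (27.7 to 53.3) are an example.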

Other observations

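Mitochondria translate their own mRNAs with a separate set of factors, whose genes lie in the nucleus. Of 10 such genes 9 were listed, beside 60.2% of annotated protein-coding genes. The EIF and EEF members had a median of 82 counts and 5.84 per kb, against 66 counts and 2.40 per kb for these 9. GFM1, a mitochondrial elongation factor G gene, had 140 counts and GFM2 had 111. EEF1A1 had 102 counts per kb, against 16.5 for TUFM, the gene of its mitochondrial counterpart, which had 66 counts over 4.00 kb. TSFM, for its exchange factor, had 20.

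Of 11 genes of the mTOR pathway, which acts on eIF4E-binding proteins and on TOP mRNAs, 8 were listed. They are too few to set against the 60.2% of annotated protein-coding genes that were listed. Their median was 102.5 counts, over long intervals with a median of 53.6 kb. Per kb their median was 1.75, beside 1.54 over all listed protein-coding genes. RPTOR had 438 counts over 313 kb, or 1.40 per kb. RICTOR had 231, TSC1 137 and TSC2 108. MTOR had 35, over an interval that covers only a part of the known gene, and RPS6KB2, MLST8 and DEPTOR were not listed.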
